A study of Mus musculus with 6 samples.

Results

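The 10 genes described here belong to the integrated stress response and to serine synthesis, and were followed in cultured pancreatic acini: *Chac1*, *Trib3*, *Ddit3*, *Asns*, *Phgdh*, *Psat1*, *Psph*, *Shmt2*, *Slc7a11* and *Sesn2*. They are 10 of the 56953 genes in the count table, were taken by name, and all 10 passed the filter on low counts that kept 14738 genes. The genes were selected on their measured differences between these same libraries as well as on their known function, so their fold changes are given as a description. Counts of them that a test called are given beside the share of all genes, and nothing is read from those counts. Acini are the enzyme-secreting clusters of the exocrine pancreas, and in culture they lose acinar features and take on a duct-like form, acinar-to-ductal metaplasia (ADM). The libraries came from acini of wild-type mice (WT), of *Dkk3*-null mice (DD), and of *Dkk3*-null mice whose acini received recombinant soluble DKK3 protein (DD + rDKK3), all without an added oncogene and all taken at day 3 of culture. Every culture was grown in Matrigel and serum-containing Waymouth medium with trypsin inhibitor and dexamethasone, the controls included. There were 2 libraries in each of the 3 groups. The labelled age ran from 10 weeks in the first WT library to 15 weeks in the second DD + rDKK3 library, in the order of the groups, 1 week apart from each library to the next. Such a regular series may not be the true ages, and as labelled, age and group cannot be told apart. In addition, 1 of the 6 libraries, WT 2, was labelled female.

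ATF4 is a transcription factor whose protein is made when eIF2α is phosphorylated by the kinases PERK, GCN2, PKR or HRI, which sense stress in the endoplasmic reticulum (ER), amino acid shortage, double-stranded RNA and haem shortage or mitochondrial stress. It raises genes that import amino acids, make serine, glycine and asparagine, charge tRNAs and defend glutathione, and with prolonged stress it raises *Ddit3* (CHOP), which together with ATF4 drives *Trib3* and *Chac1*. Acinar cells make more protein than most other cells, so amino acid supply and ER load are central to their physiology. ATF4 activity is set largely by translation, which RNA counts do not measure.

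ATF4 and C/EBP proteins bind a composite element, the C/EBP-ATF response element, with the core TGATGNAA. This element was searched on both strands in the RefSeq promoter windows, which run from 250 bases before to 50 bases after each start. All 10 genes matched the table, and 4 of them held the element, *Chac1*, *Trib3*, *Asns* and *Slc7a11*, whereas 4.51% of the 27025 genes of the table held it in any window and 3.97% of its 32851 windows did. The form TGATGCAA, which is contained in the first search, was present in 2 of them, *Chac1* and *Slc7a11*, and in 1.03% of genes and 0.895% of windows. The 10 genes were taken partly for their known link to ATF4, so nothing is read from the contrast with all genes. Distances are the bases between the match and the RefSeq start, which differs from the gene start in the deposited annotation. For *Chac1* and *Slc7a11* the match lay before both starts, and these stretches are shown because *Chac1* was low in both *Dkk3*-null groups and *Slc7a11* was dominated by single libraries. Each line is the gene's own strand, 5′ to 3′, on GRCm39, with the element in capitals, and coordinates are those of the printed stretch. The *Chac1* match ended 185 bases before the start, in chr2:119181510-119181557 on the plus strand, and it reads on the opposite strand as the element. *Slc7a11* held a pair of matches in opposite orientations, in chr3:50398101-50398148 and chr3:50398082-50398129 on the minus strand, 58 and 39 bases before the start.
Chac1: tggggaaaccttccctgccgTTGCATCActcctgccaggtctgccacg
Slc7a11, first: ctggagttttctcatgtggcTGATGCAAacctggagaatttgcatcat
Slc7a11, second: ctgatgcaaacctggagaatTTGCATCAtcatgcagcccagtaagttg
For *Asns* and *Trib3* the side of the start depended on the annotation. The *Asns* match, TGATGAAA at chr6:7693225-7693232, lay 15 bases before the RefSeq start at 7693209 but inside the deposited gene, which starts at 7693254 on the minus strand. The *Trib3* match, TTACATCA at chr2:152185959-152185966, lay after the RefSeq start at 152185980 but before the deposited start at 152185952, also on the minus strand. A match is a run of letters in this window only, and nothing about binding was measured. The windows of *Ddit3*, *Phgdh*, *Psat1*, *Psph*, *Shmt2* and *Sesn2* held no such letters.

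The libraries held 12018473 to 19750401 counts. *Dkk3* itself was close to undetected everywhere, with counts of 10 and 1 for WT, of 11 and 9 for DD, and of 5 and 5 for DD + rDKK3, so it could not check the genotypes, and groups are named as labelled. The paper states that the knockout allele replaces exon 2, and attributes similar *Dkk3* RNA in WT and DD acini to a second transcript, *Dkk3b*. By that account a count over the whole gene need not separate the genotypes, and null refers to the secreted protein. Counts are given as CPM, scaled to library depth. The 12 acinar markers, all measured, made up 8.4% to 14.4% of the scaled counts, which matches the labelled cell type. The 12 fibroblast and stellate cell markers, none of them at 0, summed to between 55.4 and 165 CPM in 4 libraries and to 802 and 890 CPM in DD 2 and DD + rDKK3 2. The 8 macrophage markers, also none at 0, summed to 57.5 to 115 CPM in those 4 libraries and to 239 and 184 CPM in the same pair. These 2 libraries were therefore left out as an alternative beside the main results. In such bulk RNA, fewer cells of a type and less RNA per cell cannot be told apart. Levels below are CPM scaled by TMM, which applies a single factor to each library and does not remove differences in cell mixture. Fold changes are log2 with the standard error (SE) from edgeR's quasi-likelihood fit to all 6 libraries. No source used here says which animals each sample holds, so p-values measure only the spread between these samples, which may be technical.

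DD acini carried less RNA for 9 of the 10 genes than WT acini, with *Slc7a11* the exception. The median log2 fold change of the 10 genes was -0.39, and that of all 14738 genes was 0.02. Of the 10, *Chac1*, *Trib3*, *Ddit3*, *Phgdh*, *Psat1* and *Psph* (6 genes) had both DD libraries below both WT libraries, which was also so for 19.7% of all genes, and 0 of the 10 had both above, against 18.1%. None of the 10 was called at an adjusted p under 0.05 by edgeR, which called 0.0407% of all genes, by DESeq2, which called 0.522%, or by limma-voom, which called 0.0543%. At an unadjusted p under 0.05, 5 of the 10 were lower, against 8.26% of all genes in either direction. Because this contrast entered the choice of genes, nothing is read from these shares. The count of 9 below 0 was 7 without DD 2 and 10 without DD 1. It was 6 when libraries were scaled by size alone, a scaling that also moved the median of all genes to 0.22 and that of the 10 genes to -0.18.

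**Figure D1:**
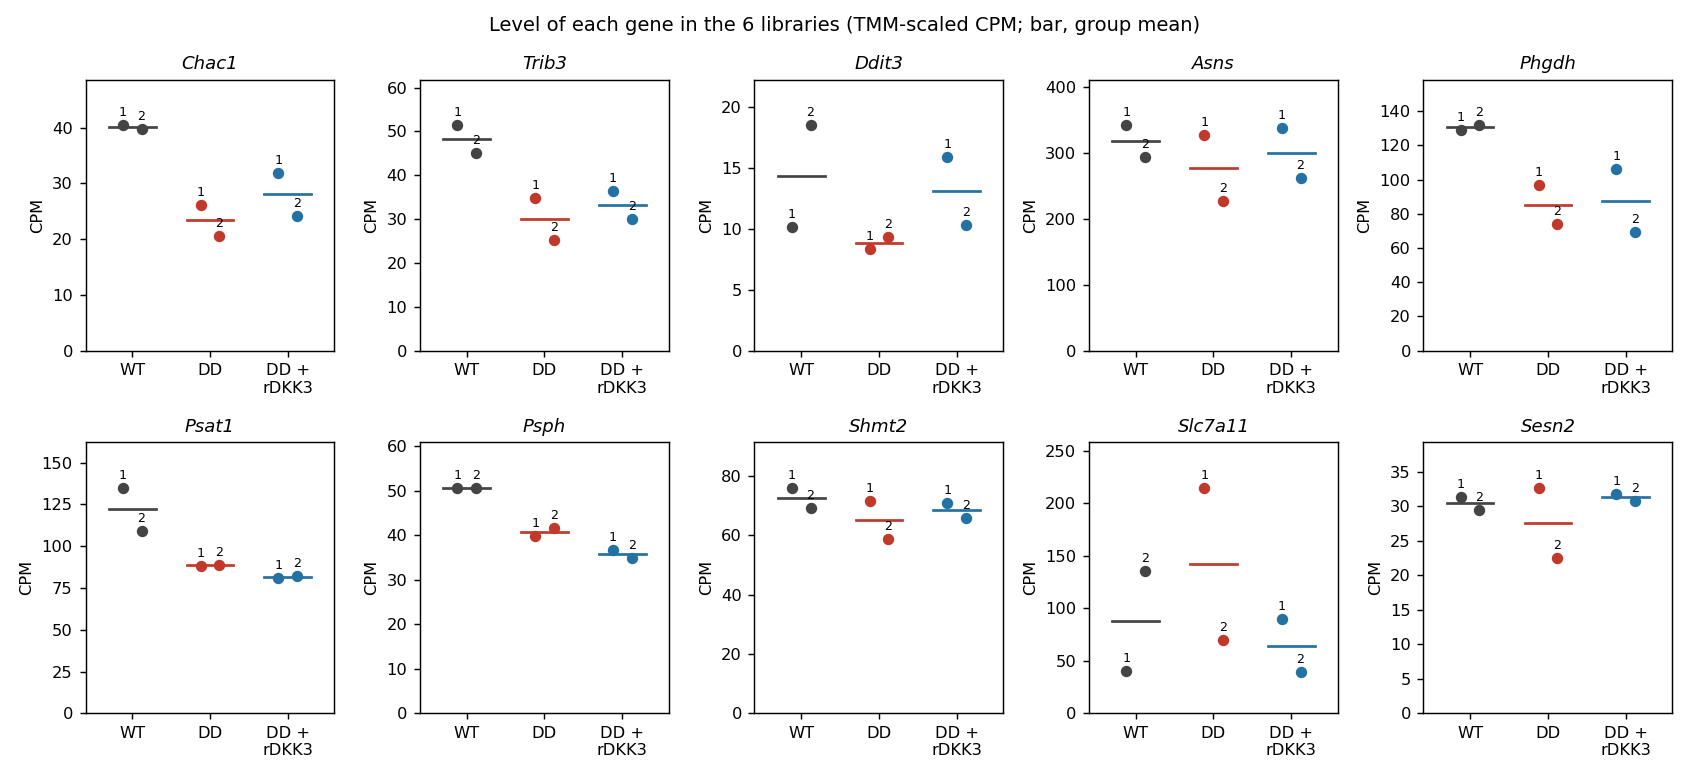
TMM-scaled CPM of the 10 genes (vertical axes, each from 0) in WT, DD and DD + rDKK3 acini, with a numbered point for each library and a bar at the group mean. *Chac1*, *Trib3*, *Phgdh*, *Psat1* and *Psph* had all 4 Dkk3-null libraries below both WT libraries, and *Slc7a11* ranged from 39.3 to 215 CPM.

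*Ddit3*, *Trib3* and *Chac1* form the late arm of the response. *Ddit3* encodes CHOP, a transcription factor linked to cell death under unresolved ER stress, *Trib3* encodes a pseudokinase that restrains AKT and CHOP, and *Chac1* encodes a cyclotransferase that degrades glutathione.

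*Chac1* (ENSMUSG00000027313.4, chr2:119181710-119184862, plus strand) was measured at 40.5 and 39.7 CPM in WT, 26.2 and 20.6 in DD, and 31.9 and 24.2 with rDKK3. All 4 *Dkk3*-null libraries lay below both WT libraries, while the 2 null groups overlapped. Its level was 1.71-fold lower in DD than in WT (log2 -0.78, SE 0.192) and 1.43-fold lower in DD + rDKK3 than in WT (log2 -0.51, SE 0.191). The difference of DD + rDKK3 from DD was 0.26 (SE 0.191), and it was 0.04 without DD + rDKK3 1. The difference of DD + rDKK3 from WT was -0.32 without DD + rDKK3 2.

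*Trib3* (ENSMUSG00000032715.10, chr2:152179342-152185952, minus strand) stood at 51.5 and 45.0 CPM in WT, 34.9 and 25.2 in DD, and 36.5 and 30 with rDKK3. Its order was that of *Chac1*, with both WT libraries highest and DD 2 lowest. The fitted difference was -0.68 (SE 0.2) between DD and WT and -0.54 (SE 0.199) between DD + rDKK3 and WT. Between DD + rDKK3 and DD it was 0.14 (SE 0.199), and without DD 2 it changed sign to -0.07.

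*Ddit3* (ENSMUSG00000025408.16, chr10:127126643-127132157, plus strand) was counted at 10.1 and 18.5 CPM in WT, 8.37 and 9.34 in DD, and 15.9 and 10.3 with rDKK3. DD lay below both other groups, although WT 1 and DD 2 were close. The difference of DD from WT was -0.70 (SE 0.325), which became -0.19 without WT 2 and -1.05 without WT 1. The difference of DD + rDKK3 from DD was 0.57 (SE 0.323), with 0.21 left without DD + rDKK3 1, and that of DD + rDKK3 from WT was -0.13 (SE 0.321), turning to 0.38 without WT 2. A second entry with the same gene name held 0 counts and shares 105 of the 979 exon bases of the canonical *Ddit3* transcript, where the counting mode drops ambiguous reads, so the *Ddit3* level is uncertain by that stretch.

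The summed level of *Ddit3*, *Trib3* and *Chac1* was 102.2 and 103.3 CPM in WT, 69.5 and 55.09 in DD, and 84.31 and 64.53 with rDKK3. Both WT libraries were above all 4 *Dkk3*-null libraries, and the 2 null groups overlapped. The labels give the null groups shared numbers but no shared animal, so ratios by number, here and below, are not read as paired effects. Taking the null libraries by number, the DD + rDKK3 library was 1.22 and 1.18 times the DD library for *Chac1*, 1.04 and 1.19 times for *Trib3*, and 1.9 and 1.1 times for *Ddit3*.

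*Phgdh*, *Psat1* and *Psph* encode the enzymes that turn the glycolytic intermediate 3-phosphoglycerate into serine, in that order. PHGDH oxidises it, PSAT1 transfers an amino group from glutamate, and PSPH removes the phosphate.

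*Phgdh* (ENSMUSG00000053398.12, chr3:98220486-98247306, minus strand) reached 129 and 132 CPM in WT, 96.6 and 74.2 in DD, and 106 and 69.5 with rDKK3. Both null groups lay below WT, and the number-2 library was the lower one in each. The fitted difference was -0.61 (SE 0.232) for DD against WT, 0.04 (SE 0.231) for DD + rDKK3 against DD, and -0.57 (SE 0.232) for DD + rDKK3 against WT. Leaving out DD + rDKK3 1 moved the last value to -0.91, and leaving out DD + rDKK3 2 moved it to -0.29. The middle value changed sign to -0.31 without DD + rDKK3 1.

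*Psat1* (ENSMUSG00000024640.10, chr19:15882042-15924701, minus strand) was present at 135 and 109 CPM in WT, 88.1 and 88.8 in DD, and 81.1 and 82.2 with rDKK3. The 2 libraries of each null group lay close together, and the spread was in WT. The difference was -0.47 (SE 0.161) for DD against WT and -0.29 without WT 1. It was -0.58 (SE 0.162) for DD + rDKK3 against WT, and -0.12 (SE 0.161) for DD + rDKK3 against DD.

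*Psph* (ENSMUSG00000029446.15, chr5:129842622-129864513, minus strand) had close replicates in every group, with 50.6 and 50.7 CPM in WT, 39.8 and 41.7 in DD, and 36.7 and 34.8 with rDKK3. The 3 groups did not overlap, in the order WT, DD, DD + rDKK3. Relative to WT the level was 1.24-fold lower in DD (log2 -0.31, SE 0.133) and 1.42-fold lower in DD + rDKK3 (log2 -0.50, SE 0.134), and the difference between the null groups was -0.19 (SE 0.133).

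Summed over the 3 enzymes, the pathway stood at 315.4 and 291.7 CPM in WT, 224.6 and 204.7 in DD, and 223.9 and 186.4 with rDKK3. The lowest WT library was above the highest null library. *Psat1* and *Psph* were lower with rDKK3 in both numbers: the ratio of DD + rDKK3 to DD was 0.921 and 0.925 for *Psat1* and 0.922 and 0.834 for *Psph*. For *Phgdh* it was 1.1 and 0.937.

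*Asns* (ENSMUSG00000029752.13, chr6:7675169-7693254, minus strand), which makes asparagine from aspartate and glutamine, had 343 and 294 CPM in WT, 327 and 228 in DD, and 339 and 262 with rDKK3. All 3 groups overlapped. Its fitted differences were -0.20 (SE 0.231) for DD against WT, 0.12 (SE 0.23) for DD + rDKK3 against DD and -0.08 (SE 0.23) for DD + rDKK3 against WT. Without DD 2 the first turned to 0.04 and the second to -0.12, and without DD + rDKK3 2 the third turned to 0.09.

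*Shmt2* (ENSMUSG00000025403.6, chr10:127352992-127358313, minus strand) encodes the mitochondrial enzyme that splits serine into glycine and a one-carbon unit. It was at 76.1 and 69.1 CPM in WT, 71.5 and 58.7 in DD, and 70.8 and 66.0 with rDKK3, again with overlap of all groups. The differences were -0.16 (SE 0.16), 0.07 (SE 0.16) and -0.09 (SE 0.16) in the same order of comparisons. Leaving out DD 2 moved the first to -0.02 and turned the second to -0.06.

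*Sesn2* (ENSMUSG00000028893.9, chr4:132219343-132237812, minus strand) encodes a leucine-binding sestrin that restrains mTORC1. It was at 31.3 and 29.5 CPM in WT, 32.7 and 22.5 in DD, and 31.8 and 30.8 with rDKK3. Only DD 2 stood apart from the other 5 libraries. The differences were -0.14 (SE 0.195), 0.18 (SE 0.193) and 0.04 (SE 0.195), and without DD 2 the first 2 of these were 0.10 and -0.06.

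*Slc7a11* (ENSMUSG00000027737.11, chr3:49846975-50398063, minus strand) encodes xCT, the subunit that exchanges cystine for glutamate and so feeds glutathione synthesis. It was the most variable of the 10, with 40.8 and 136 CPM in WT, 215 and 70.2 in DD, and 89.9 and 39.3 with rDKK3. The highest library was 5.48 times the lowest, and every group overlapped with both others. The differences were 0.69 (SE 0.678) for DD against WT, -1.15 (SE 0.683) for DD + rDKK3 against DD, and -0.46 (SE 0.679) for DD + rDKK3 against WT. The first was -0.31 without DD 1 and 1.81 without WT 2. The second was -0.14 without DD 1 and -1.87 without DD + rDKK3 1, and the third was -1.18 without DD + rDKK3 1 and 0.67 without WT 2. Within each number, DD + rDKK3 was 0.417 and 0.559 times DD.

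Comparing DD + rDKK3 with DD, which asks what added DKK3 protein does in null acini, 7 of the 10 genes were higher and 3 lower, with a median of 0.09 beside -0.003 for all genes. One gene, *Ddit3*, had both treated libraries above both untreated ones, against 15.1% of all genes, and 2, *Psat1* and *Psph*, had both below, against 14.4%. None was called by edgeR, DESeq2 or limma-voom. Of all genes, edgeR and limma-voom called 0%, while DESeq2 called 0.0775% of the 6452 to which it gave an adjusted p. At an unadjusted p under 0.05, 0 of the 10 passed, against 1.98% of all genes. DESeq2 gave no adjusted p for 1 of the 10. The direction of the median depended on single libraries, being -0.09 without DD 2 and -0.06 without DD + rDKK3 1, and the count of 7 higher was 2 and 4 in these.

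DD + rDKK3 acini were lower than WT for 9 of the 10 genes, with a median of -0.48 beside 0.02 for all genes. *Chac1*, *Trib3*, *Phgdh*, *Psat1* and *Psph* lay below both WT libraries in both treated libraries, which was so for 27.1% of all genes, and 0 lay above, against 27.9%. These are the same 5 that were lower at an unadjusted edgeR p under 0.05, against 15.3% of all genes in either direction (1180 of the 14738 lower). This contrast too shares the libraries the genes were selected on, so nothing is read from these shares. No call was made among the 10 by edgeR, DESeq2 or limma-voom. Of all genes, edgeR called 0.0475% and limma-voom 0.0204%, while DESeq2 called 1.09% of the 5595 to which it gave an adjusted p. DESeq2 gave 1 of the 10 no adjusted p. The median was -0.16 without DD + rDKK3 2, and the same -0.16 without both null libraries numbered 2. The 9 genes below 0 were then 6. The 3 comparisons share libraries, so they are not independent of one another.

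**Figure D2:**
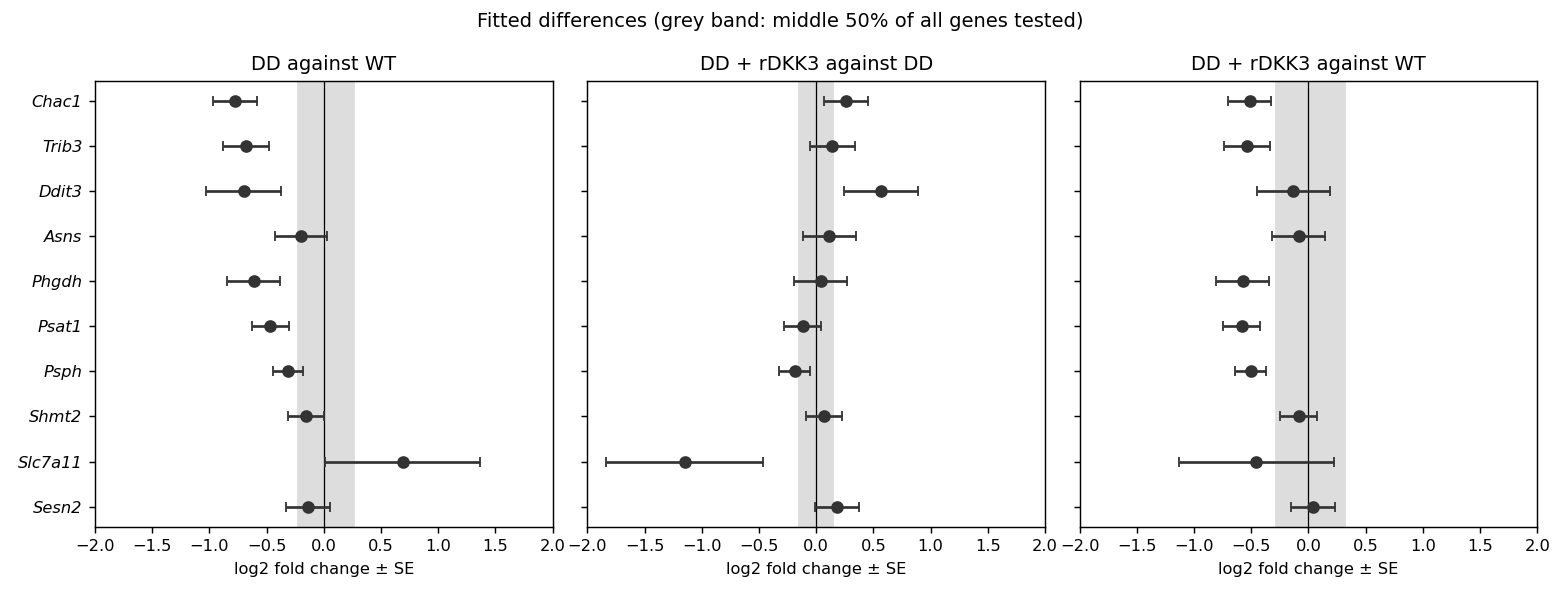
Fitted log2 fold change (horizontal axis, bars ± SE) of the 10 genes in the 3 comparisons, with a grey band for the middle 50% of the 14738 genes tested. In all, 5 genes lay below the band in both comparisons with WT, and 7 of the 10 lay above 0 in DD + rDKK3 against DD.

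Within both null groups most of the 10 genes were lower in the library numbered 2, while within WT they went both ways. Averaged over the genes, log2 CPM relative to each gene's own mean was 0.139 and 0.304 in WT, 0.0842 and -0.308 in DD, and 0.0743 and -0.293 with rDKK3. Without *Slc7a11* these averages were 0.265 and 0.256, -0.0617 and -0.318, and 0.0672 and -0.209, so that WT 1 and WT 2 were level and DD 1 was below 0. DD 2 was the lowest library for 5 genes and DD + rDKK3 2 for 3. WT 1 was the highest for 5 and WT 2 for 3. The pair of low libraries is the pair with 802 and 890 CPM of fibroblast and stellate markers, and it also had the lowest acinar marker sums. Those sums were 84000 CPM in DD 2 and 93700 CPM in DD + rDKK3 2, beside 103000 to 144000 CPM in the other libraries. The part of either marker set in the result was not tested. Without these 2 libraries, which leaves 1 library in each null group, the median of the 10 genes was -0.39 for DD against WT and 0.03 for DD + rDKK3 against DD. The genes below 0 for DD against WT were then 7 rather than 9, and those above 0 for DD + rDKK3 against DD were 5 rather than 7. All genes of a library share its depth and cell mixture, and both differed between the 6 libraries. Across these libraries, 43 of the 45 gene pairs had a positive Pearson r, with a median of 0.535 and a range of -0.217 to 0.974. *Chac1* and *Trib3* were the closest pair (r = 0.974, n = 6), *Asns* and *Shmt2* followed (r = 0.955), and *Psat1* went with *Psph* (r = 0.912). The mean of the other genes was tracked best by *Phgdh* (r = 0.938) and least by *Slc7a11* (r = 0.117). Outside all lists, 5 genes were nearest to the mean of the 10 over the 6 libraries, *Cryzl2* (r = 0.999), *Gm16285* (0.994), *Cabp2* (0.987), *Tmem106c* (0.984) and *Rpap3* (0.978), the best of 8620 genes compared.

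**Figure D3:**
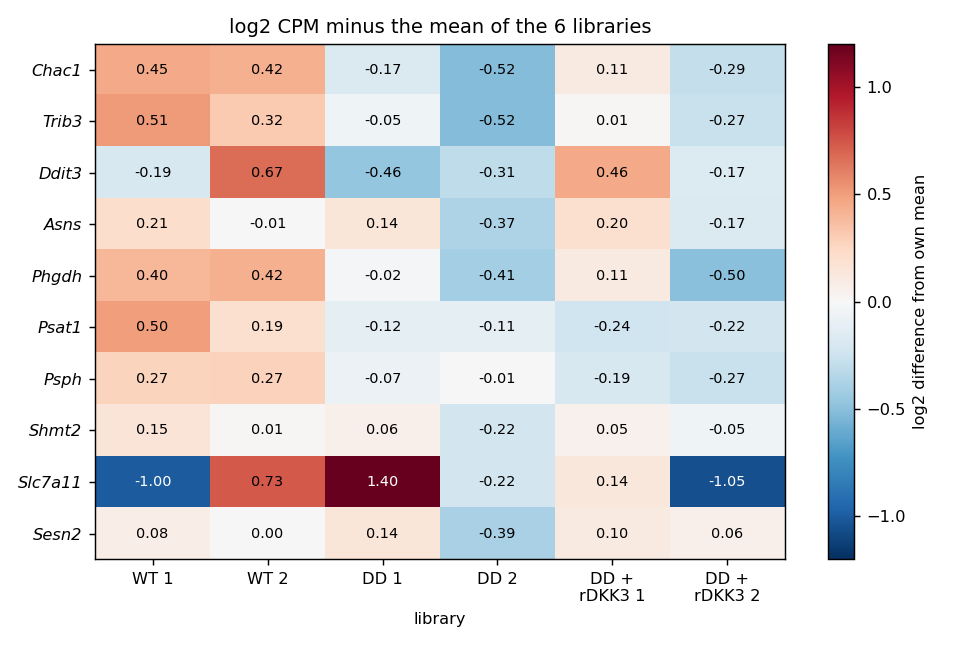
Difference of log2 CPM from the gene's mean over the 6 libraries (colour and printed value) for the 10 genes (rows) in each library (columns). DD 2 was below the mean for all 10 genes, WT 1 was above it for 8, and *Slc7a11* spanned -1.05 to 1.40.

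Per kilobase of the canonical transcript, which allows levels to be set between genes, *Asns* had the highest mean over all libraries (60.9 CPM per kb) and *Phgdh* followed (53.5). *Psat1* stood at 37.2 and *Shmt2* at 29.9. *Chac1* (18.4), *Trib3* (17.8) and *Psph* (17.4) were so close that their order is within the spread between libraries. *Ddit3* (12.4), *Slc7a11* (10.7) and *Sesn2* (8.54) were lowest. The order of the group means differed: in WT *Phgdh* (69) was above *Asns* (65), and *Slc7a11* was above *Chac1* and *Trib3* in DD (15.5, 14.1 and 14.4) but the lowest of the 10 with rDKK3 (7.0). None of these orders held in every library of its group, so they are not read as group differences. The order also rests on the transcript taken as canonical. On this scale *Asns* was above 93.8% of the genes tested and *Sesn2* above 66.3%.

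Upstream of these genes, 21 kinases and regulators of the integrated stress response were followed, and 0 were called in any comparison by edgeR, DESeq2 or limma-voom. Their median for DD against WT was -0.002, with 10 above 0 and 11 below, and 4 were lower at an unadjusted p under 0.05, *Atf4*, *Atf3*, *Nupr1* and *Eif2b2*, against 8.26% of all genes in either direction. This list and those below were chosen with earlier results of these data known, so nothing is read from such shares. For DD + rDKK3 against DD, DESeq2 gave no adjusted p to 3 of the 21, and for DD + rDKK3 against WT to 5. The highest value of the list was that of *Trib2*, a pseudokinase related to *Trib3*, at 1.77 and 1.33 CPM in WT, 1.84 and 6.81 in DD, and 2.43 and 5.59 with rDKK3. Both null groups lay above WT, with differences of 1.48 (SE 0.673, edgeR adjusted p = 0.586) and 1.38 (SE 0.673, adjusted p = 0.348), and its highest libraries were DD 2 and DD + rDKK3 2, those with the most fibroblast and stellate marker RNA, whose part in the result was not tested. *Atf4* was at 260 and 326 CPM in WT, 213 and 217 in DD, and 248 and 200 with rDKK3. Both null groups lay below WT, with differences of -0.45 (SE 0.191, edgeR adjusted p = 0.586) and -0.39 (SE 0.191, adjusted p = 0.349). *Atf3*, a stress-induced repressor, was at 30.1 and 19.9 CPM in WT, 12.7 and 15.4 in DD, and 21.6 and 19.0 with rDKK3. DD was below both other groups, with differences of -0.83 (SE 0.233, edgeR adjusted p = 0.586) from WT, and treated acini stood 0.53 (SE 0.231, adjusted p = 1) above DD. *Nupr1*, a chromatin-associated stress protein abundant in injured pancreas, had 1650 and 1710 CPM in WT, 1050 and 1260 in DD, and 1850 and 1340 with rDKK3. That is the order of *Atf3* and *Ddit3*, with DD lowest and the treated libraries above DD. Its differences were -0.53 (SE 0.218, edgeR adjusted p = 0.586) and 0.46 (SE 0.218, adjusted p = 1).

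Of the eIF2α kinases, *Eif2ak3* (PERK) was at 164 and 212 CPM in WT, 229 and 150 in DD, and 279 and 256 with rDKK3. The treated libraries were above all others, by 0.50 (SE 0.238, edgeR adjusted p = 1) over DD. *Eif2ak4* (GCN2) was at 7.85 and 12.6, 14.5 and 12.3, and 15.9 and 14.6 CPM in the same order, and *Eif2ak1* (HRI) lay between 46.8 and 55.2 CPM in all 6 libraries. *Ppp1r15a*, the phosphatase subunit that closes the loop by removing phosphate from eIF2α, was at 23.5 and 40.2 CPM in WT, 30.6 and 33.7 in DD, and 36.6 and 35.5 with rDKK3, all within the range of WT.

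The other 25 targets of ATF4 had a median of -0.07 for DD against WT, 0.05 for DD + rDKK3 against DD and -0.13 for DD + rDKK3 against WT, with 0 called by any of the 3 tools. In the last 2 of these comparisons, 8 and 9 of the 25 had no adjusted p from DESeq2. For DD against WT, 3 were lower and 1 higher at an unadjusted p under 0.05, against 8.26% of all genes in either direction. *Herpud1*, an ER-associated degradation factor, was at 465 and 460 CPM in WT, 350 and 315 in DD, and 456 and 393 with rDKK3. DD lay below both other groups, with a difference of -0.48 (SE 0.171, edgeR adjusted p = 0.586) from WT. *Fgf21*, a hormone that is made in acini and induced by ATF4, ranged from 2.53 to 10.4 CPM, with overlap of all groups. *Gdf15*, a secreted stress cytokine, had its lowest value in WT 1 (25.5 CPM) and its highest in WT 2 (85.3 CPM). *Vldlr* and *Stc2* differed by 0.43 (SE 0.277) and -0.26 (SE 0.203) for DD against WT, with adjusted p of 0.606 and 0.638 from edgeR.

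Amino acid transporters bring in what the pathway supplies or consumes. Of the 26 tested, 17 were above 0 and 9 below for DD against WT, with a median of 0.16, and edgeR and limma-voom called 0, and 3 were higher at an unadjusted p under 0.05, against 8.26% of all genes in either direction. *Slc6a6*, the taurine transporter, was at 45 and 64.4 CPM in WT, 109 and 104 in DD, and 73.2 and 98.4 with rDKK3. Both null groups were above WT, by 0.96 (SE 0.222, edgeR adjusted p = 0.512) and 0.65 (SE 0.221, adjusted p = 0.322), and DESeq2 called the first of these. *Slc3a2*, the heavy chain that *Slc7a11* and *Slc7a5* need at the membrane, was at 300 and 319, 333 and 221, and 300 and 246 CPM, without separation of groups. *Slc7a5*, the leucine transporter, was at 101 and 79.9 CPM in WT, 86.4 and 63.5 in DD, and 92.1 and 86.2 with rDKK3. *Slc1a5*, a glutamine carrier, stood at 61.7 and 65.9 CPM in DD + rDKK3 and at 47.2 to 55.0 CPM in the other 4 libraries.

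The 20 cytosolic aminoacyl tRNA synthetases, which load amino acids onto tRNAs, lay near 0 in each comparison, with medians of 0.01, 0.04 and 0.06 and 0 at an unadjusted p under 0.05. In DD against WT they ranged from -0.36 to 0.29. *Sars*, which uses serine, was at 447 and 432 CPM in WT, 406 and 345 in DD, and 403 and 363 with rDKK3. *Gars*, which uses glycine, was at 320 and 279, 294 and 222, and 296 and 246 CPM. *Sars* was below WT in all 4 null libraries, with a difference of -0.23 (SE 0.173, edgeR adjusted p = 0.637) for DD, and *Gars* overlapped.

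Around *Shmt2*, 27 genes of one-carbon, glycine and proline metabolism were tested, with 0 called by any of the 3 tools. However, DESeq2 gave no adjusted p to 12 of the 27 for DD + rDKK3 against DD and to 13 for DD + rDKK3 against WT. In DD against WT, 18 were below 0 and 9 above (median -0.14), and in DD + rDKK3 against WT again 18 were below and 9 above (median -0.17). *Mthfd2*, the mitochondrial dehydrogenase next to SHMT2 in the folate cycle, was at 110 and 110 CPM in WT, 109 and 72.6 in DD, and 105 and 90.6 with rDKK3. Its 4 null libraries lay below both WT libraries, DD 1 only just and DD 2 the furthest. *Gamt*, which makes creatine from guanidinoacetate, had the lowest log2 fold change of the list in both comparisons with WT, with 26.4 and 21.1 CPM in WT, 12.8 and 12.3 in DD, and 16.9 and 11.0 with rDKK3. Both null groups lay below WT, with differences of -0.91 (SE 0.241, edgeR adjusted p = 0.586) and -0.76 (SE 0.24, adjusted p = 0.322). *Gcsh*, a part of the glycine cleavage system, was at 54.3 and 43.4, 41.4 and 41.8, and 34.1 and 36.9 CPM. As for *Psph*, the 3 groups did not overlap. *Gldc*, its partner, did not pass the filter. *Shmt1*, the cytosolic counterpart of *Shmt2*, stayed between 7.75 and 8.91 CPM in all 6 libraries.

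Beside *Slc7a11*, 23 genes of cystine, glutathione and other redox (oxidation and reduction) metabolism were followed, the last including *Nqo1*, *Hmox1* and *Txnrd1*. Over the 6 libraries 17 of them had a positive Pearson r with *Slc7a11* and 7 reached 0.8 or more, *Gclc* (0.992), *Srxn1* (0.979), *Gclm* (0.977), *Txnrd1* (0.973), *Gsr* (0.962), *Hmox1* (0.876) and *Gss* (0.819), all over the same 6 libraries. Several of these are textbook targets of NRF2, as is *Slc7a11*. *Nfe2l2*, the gene of NRF2 and also on the list, had r = -0.101, *Gpx4* -0.001 and *Glrx* -0.23. The share of all genes that reached 0.8 was not computed, so nothing is read from the count of 7. *Gclc*, the catalytic subunit of the rate-limiting step of glutathione synthesis, was at 500 and 1070 CPM in WT, 1730 and 761 in DD, and 809 and 461 with rDKK3. *Gclm*, its modifier subunit, was at 106 and 249, 259 and 132, and 162 and 97.5 CPM. WT 1 and DD + rDKK3 2 were the lowest libraries for both, and DD 1 the highest, as for *Slc7a11*.

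In DD + rDKK3 against DD, 20 of these 23 genes were below 0 and 3 above, with a median of -0.30 beside -0.003 for all genes. None was called by edgeR, DESeq2 or limma-voom, although DESeq2 gave no adjusted p to 4 of the 23. At an unadjusted p under 0.05, 4 were lower, *Gss*, *Glrx*, *Hmox1* and *Nqo1*, against 1.98% of all genes in either direction. As the list was chosen with earlier results of these data known, nothing is read from these shares. The median was -0.15 without DD 1 and -0.47 without DD + rDKK3 1. *Nqo1*, a quinone reductase, was at 19.5 and 54.7 CPM in WT, 56.1 and 63.9 in DD, and 32.7 and 27.4 with rDKK3. The treated libraries were below both DD libraries, with a difference of -1.0 (SE 0.397, edgeR adjusted p = 1). *Gss*, glutathione synthetase, was at 53.9 and 79.5, 79.8 and 75.1, and 56.6 and 52.3 CPM, with a difference of -0.51 (SE 0.2, edgeR adjusted p = 1) between the null groups. *Gpx4*, which uses glutathione to reduce lipid peroxides, ran in another order, 339 and 296 CPM in WT, 208 and 255 in DD, and 198 and 160 with rDKK3. The difference of DD + rDKK3 from WT was -0.82 (SE 0.193, edgeR adjusted p = 0.322), which DESeq2 called. *Chac2*, the constitutive relative of *Chac1*, overlapped in all 3 groups, with 32 and 39.4 CPM in WT, 29.7 and 41.5 in DD, and 28.8 and 36.2 with rDKK3.

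**Figure D4:**
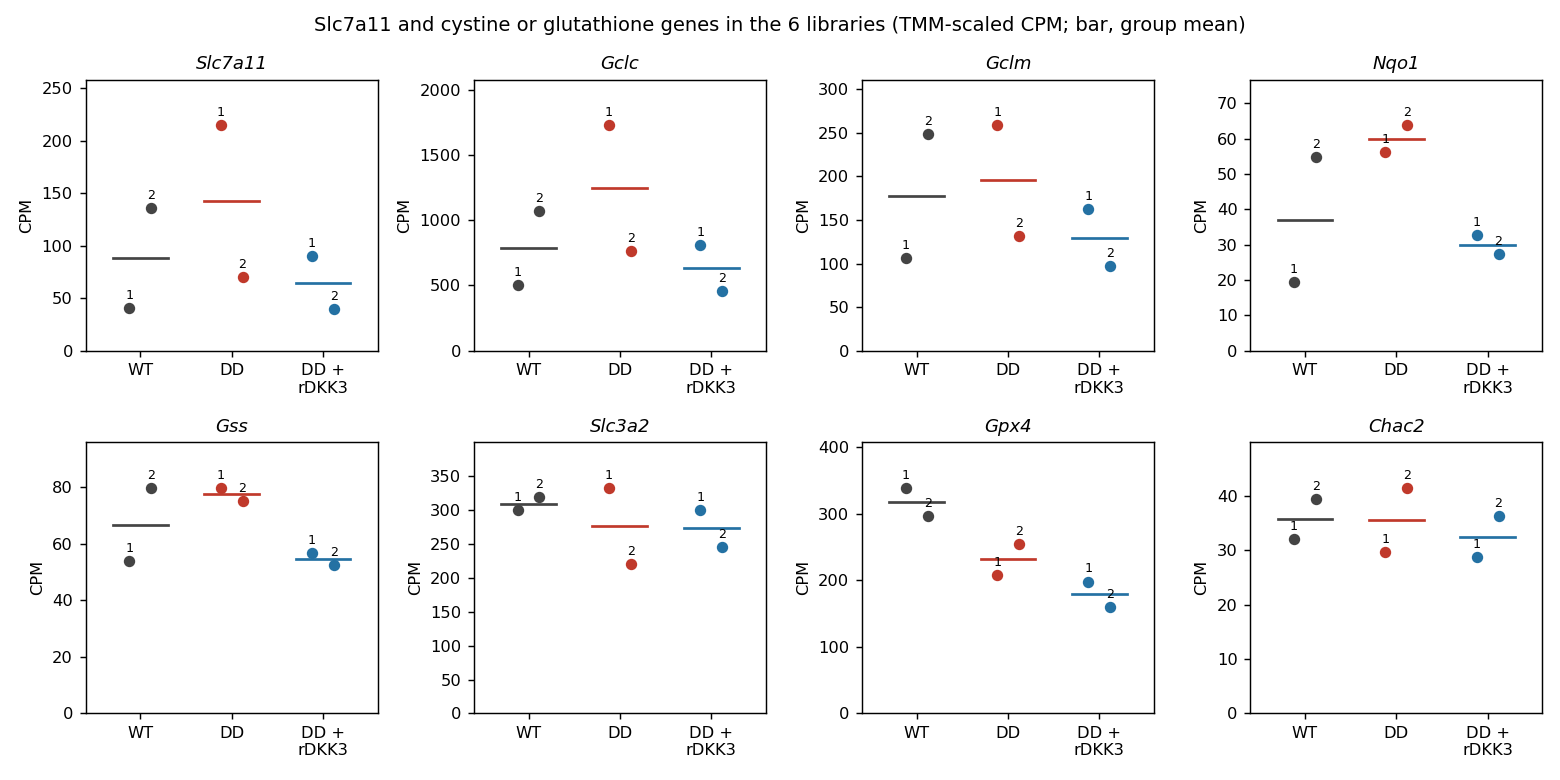
TMM-scaled CPM of *Slc7a11* and of 7 cystine, glutathione or other redox genes (vertical axes, each from 0) by group, with a numbered point for each library and a bar at the group mean. *Gclc* and *Gclm* had the same highest and lowest libraries as *Slc7a11*, while *Gpx4* and *Chac2* were ordered otherwise.

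Among 29 sestrins, amino acid sensors and other genes of the mTORC1 pathway, 0 were called and the medians were 0.03, 0.02 and 0.01. For 8 of them in DD + rDKK3 against DD, and 11 in DD + rDKK3 against WT, DESeq2 gave no adjusted p. At an unadjusted p under 0.05, 5 were higher and 3 lower in DD + rDKK3 against WT, against 15.3% of all genes in either direction. There the list ran from -0.78 for *Sar1b* to 0.90 for *Flcn* (edgeR adjusted p = 0.322 for both). The 2 other sestrins lay on opposite sides of 0 in DD against WT. *Sesn1*, a p53 target, was at 40.4 and 51.7 CPM in WT, 33.6 and 30.8 in DD, and 46.7 and 37.4 with rDKK3. DD was below both other groups, with a difference of -0.52 (SE 0.183, edgeR adjusted p = 0.586) from WT, and DD + rDKK3 was above it by 0.39 (SE 0.182, adjusted p = 1). *Sesn3*, a FOXO target, was at 19.9 and 20.8 CPM in WT, 28.6 and 23.4 in DD, and 25 and 30.2 with rDKK3. It was above WT in all 4 null libraries, by 0.35 (SE 0.177, edgeR adjusted p = 0.586) in DD.

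Of 26 ER chaperones and genes of the other unfolded protein response arms, 16 were below 0 in DD against WT (median -0.11) and 18 above 0 in DD + rDKK3 against DD (median 0.11), with 0 called by any of the 3 tools. DESeq2 gave no adjusted p to 1 of the 26 in each comparison of DD + rDKK3. *Hspa5*, the chaperone BiP, was at 1320 and 1240 CPM in WT, 966 and 1120 in DD, and 1390 and 997 with rDKK3. *Xbp1*, the factor activated by IRE1, was at 1370 and 1050, 1010 and 775, and 1110 and 946 CPM. Both were lower in DD than in WT without overlap, with differences of -0.29 (SE 0.216, edgeR adjusted p = 0.63) and -0.45 (SE 0.225, adjusted p = 0.586), and DD + rDKK3 overlapped with DD.

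**Figure D5:**
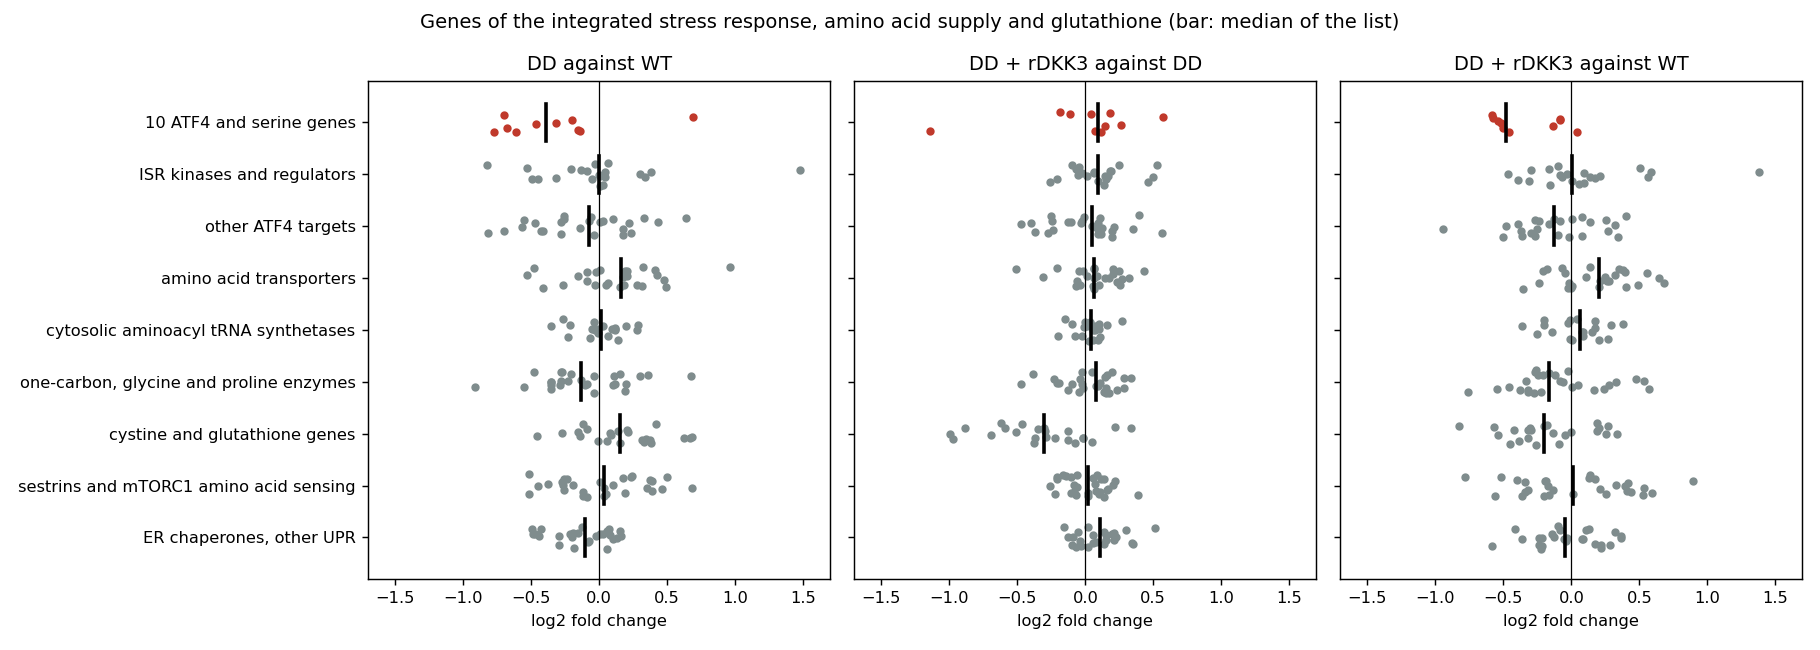
Log2 fold changes (horizontal axes) of the 10 genes (red) and of 8 related lists (grey) in the 3 comparisons, with a point for each gene and a bar at the list's median. The 10 genes had medians of -0.39 and -0.48 against WT. The list of cystine, glutathione and other redox genes had a median of -0.30 for DD + rDKK3 against DD.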

How the data were processed

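RNA was sequenced from 6 cultures of mouse acini. The authors mapped reads to GRCm39 with STAR 2.7.9a and deposited raw counts per gene, summed from strand-specific exon counts of GenomicAlignments in Union mode without pooling replicates, and their study used DESeq2 1.38.0. The deposited counts were tested here with edgeR 4.0.16 in R 4.3.3. The steps were filterByExpr with a minimum count of 10, TMM scaling and a quasi-likelihood fit of the 3 groups over all 6 libraries. Benjamini-Hochberg adjustment ran over 14738 genes, with a threshold of 0.05. The 92 spike-in rows held 0 counts and were left out. SE is the log2 fold change divided by the root of its F statistic. Correlations used log2 CPM with a prior count of 2. Lengths are of the canonical GENCODE transcript. Promoters are RefSeq windows of GRCm38.p6, found again in GRCm39 by exact match.

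The 10 genes, the 8 lists and the rule for named genes were chosen with earlier results of these data known. The rule allowed the 10 genes, a fixed set of regulators and enzymes, called genes of each list, its largest difference in each direction among genes averaging 1 or more in log2 CPM, and the 5 genes most like the 10. *Srxn1*, *Txnrd1*, *Gsr*, *Hmox1*, *Glrx*, *Nfe2l2* and *Eif2b2* were named after their values were seen. Alternatives were another scaling, other filters, DESeq2 1.42.0, limma-voom (limma 3.58.1), fits of fewer libraries and a replicate block. The fits were tested on simulated data first. Counts limit precision: the lowest count among the 10 genes was 103.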

Additional observations from a re-analysis of the deposited data

How the results depend on the processing

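With edgeR, 6 genes were called for DD against WT, 0 for treated against untreated null acini, and 7 for treated null acini against WT. They numbered 528, 73 and 788 with no filter on low counts and 77, 5 and 61 with DESeq2, and 8, 0 and 3 with limma-voom. The cause of these differences was not tested. Leaving out 1 library at a time gave 2 to 4 for DD against WT and 2 to 5 for DD + rDKK3 against WT, and without both null libraries numbered 2 the first count was 14. The labels give the groups shared numbers but no shared animal. With the number as a replicate block the counts were 7, 0 and 5, and with the block within the null libraries 65 and 77 genes were called against WT. Deviations of same-numbered libraries correlated by 0.65 between DD and DD + rDKK3, by -0.387 between WT and DD and by -0.247 between WT and DD + rDKK3, and since neither the labels nor the methods say that a number marks a shared animal, the block was kept as an alternative, also for the null groups. Exchanging the WT numbers in the block, chosen after seeing the data, gave 296, 29 and 566. The median of the 10 genes for DD + rDKK3 against WT, -0.48, ranged from -0.56 to -0.162 when 1 library was left out, and was -0.162 without both null libraries numbered 2. Of 30 differences of the 10 genes, 17 kept their sign under every alternative and 13 did not. Signs differed for 6 with library size alone and for 7 without DD 2. With 2 libraries a group, no difference of the 10 genes had an adjusted p under 0.05.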
